A study of Mus musculus with 2 samples.

Results

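The glycolysis and HIF target genes are 40 listed mouse genes that act in oxygen sensing, in the uptake and breakdown of glucose, in the handling of pyruvate and lactate, or as other targets of the hypoxia-inducible factor. They were chosen by symbol, as all probes of the array whose platform symbol is one of the 40. Of these genes, 35 had a probe named for them, with 53 probes in all, out of 25697 probes on the array and 16590 genes named by them. No probe is named here for Gpi1, Eno1, G6pdx, Pgd and Ankrd37, and these are not analysed here. The cells were S100A4+ stromal cells, sorted by fluorescence from lungs of BALB/c mice with an S100A4-GFP transgene. One array measured such cells from metastatic lung of mice that bore tumours of 4T1, a mouse breast cancer cell line known to metastasize to lung, and 1 array measured such cells from normal lung. The labels state neither sex, age nor any pooling of animals. Each group is a single array, so no difference has a replicate check or a p-value, and effects of array, of sort and of condition cannot be told apart.

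The hypoxia-inducible factor, HIF, is a transcription factor of an oxygen-labile alpha subunit (HIF-1 alpha, gene Hif1a, or HIF-2 alpha, gene Epas1) and a stable partner encoded by Arnt. When oxygen is plentiful, prolyl hydroxylases of the Egln family mark the alpha subunit, and the ubiquitin ligase subunit encoded by Vhl leads it to degradation, so that much of its control acts on the protein and is not seen by an mRNA array. When oxygen is short, HIF binds short DNA motifs near genes of glucose transport, glycolysis and lactate export and induces them. Neutrophils and inflammatory macrophages are known to draw much of their energy from glycolysis.

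Of the 35 genes with a probe, 28 were detected on both arrays, 1 (P4ha2) on the normal-lung array only and 6 (Hif1an, Hk1, Aldoc, Pgk1, Slc16a1 and Bnip3) on neither. A probe counts as detected where its deposited detection p is below 0.01, and a gene is read from its brightest probe. The 29 detected members make up 82.9% of those with a probe, against 49.0% of all named genes. Among these 29, 5 had a ratio of 2-fold or more in favour of the metastatic-lung cells, namely Hif1a, Slc2a1, Pfkfb3, Slc16a3 and Ndrg1, which is 17.2%, against 5.08% of the 8128 genes detected on at least 1 array. Lower by 2-fold or more were 2 members, Pfkfb4 and Ddit4, or 6.90%, against 8.16% of those genes. The members were chosen with earlier results of these data known, so their contrasts with all genes are not independent of the ratios. The median log2 ratio, metastatic over normal lung after normalization, was 0.24 for the 28 members with both values, against 0.05 over all 6904 such genes. With P4ha2 entered at its bound, the median over 29 members was 0.21, against 0.01 over the 8128 genes. The ratio was above 0 for 19 of the 28 members (67.9%) and for 53.9% of all genes detected on both arrays. Most members differed little: 18 of the 28 were less than 1.5-fold apart (64.3%), against 71.0% of all such genes. Past 1.5-fold were 8 members higher and the same 2 lower, with backgrounds of 14.4% and 15.5% of the 8128 genes.

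**Figure D1:**
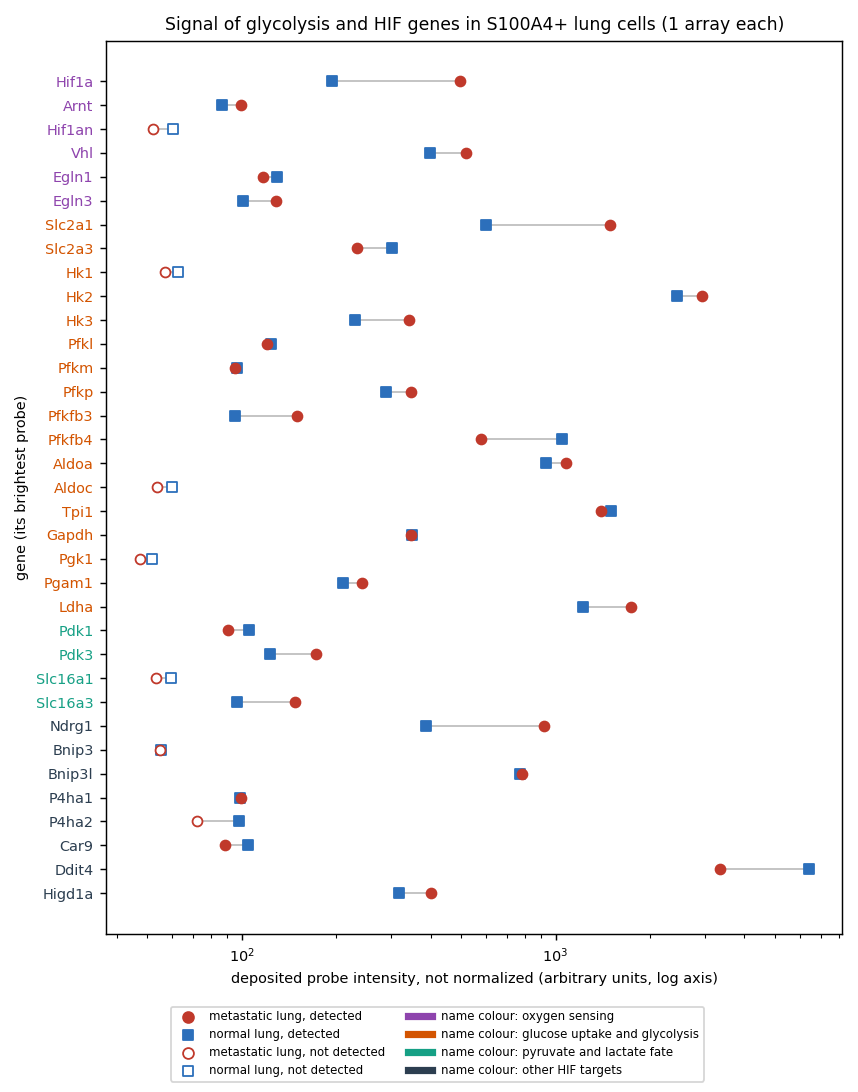
Deposited intensity of the brightest probe of each of the 35 genes (log axis, arbitrary units) on the metastatic-lung array (red circles) and the normal-lung array (blue squares), with open symbols where the probe was not detected. The widest gaps to the right on the metastatic-lung array are those of Hif1a (497 against 194), Slc2a1 (1495 against 602) and Ndrg1 (919.6 against 387), while Ddit4 lies lower there (3338 against 6419).

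Across the arrays as a whole, the median probe signal was 66.1 in the metastatic-lung cells and 72.2 in the normal-lung cells, and 40.9% and 42.6% of probes were detected. The sorted gene S100a4 was detected on both arrays, with a signal of 1122 in metastatic-lung and 743 in normal-lung cells. The signals of cell type markers differed between the arrays. Of 19 neutrophil markers with a probe, 18 were detected in the metastatic-lung cells and 14 in the normal-lung cells. Their summed signal was 15452 and 8665. Of the 18 detected on at least 1 array, 11 were at least 2-fold higher (61.1%, against 5.08% of all detected genes). At least 2-fold lower were 0 (against 8.16% of all), and 7 were within 2-fold. Granule genes Mpo, Elane, Prtn3 and Ctsg were not detected in normal-lung cells. In metastatic-lung cells S100a9 was 1.80-fold and Cxcr2 1.18-fold lower, while Csf3r, Wfdc21 and Hdc were 1.07-, 1.18- and 1.20-fold higher. Of 13 endothelial markers, 8 and 11 were detected, and the summed signal was 1258 and 6119. At least 2-fold lower were 10 of the 11 detected on at least 1 array (90.9%, against 8.16% of all). Cdh5 and Tie1 were detected on neither array, and Kdr, Plvap and Emcn not in the metastatic-lung cells. Of 12 fibroblast markers, 6 and 9 were detected with summed signals of 1183 and 3380. Of 10 macrophage markers 7 and 9 were detected with 4185 and 10348, and of 11 lymphocyte markers 7 and 9 with 876.8 and 2018. Chil3 alone gave 1137 and 5414 of the macrophage sums. Among 9 macrophage markers detected on at least 1 array, 5 were at least 2-fold lower and 4 within 2-fold. Adgre1 and Cd163 were 1.23- and 1.30-fold lower. Among 9 such lymphocyte markers, 6 were at least 2-fold lower and 3 within 2-fold, with Cd8a 1.14-fold higher. Among the fibroblast markers, Col3a1, Pdgfra, Dpt, Inmt, Thy1 and Fbln1 were detected on both arrays. Col1a2, Dcn and Mfap4 were detected in normal-lung cells only, and Col1a1, Lum and Postn on neither array. Epithelial and carcinoma markers were detected for 7 of 11 genes on each array, with summed signals of 4494 and 7243. Markers of red cells and platelets were detected for 2 and 4 of 6 genes, with 509.3 and 1403. The part of these shifts in the values of the glycolysis and HIF genes was not tested, and in such bulk samples fewer cells of a type and less RNA per cell cannot be told apart.

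Among the genes of oxygen sensing, Hif1a stood out. Measured by 1 probe, it gave 497 in the metastatic-lung cells and 194 in the normal-lung cells, a log2 ratio of 1.57 (2.97-fold higher), and 1.17% of genes detected on both arrays had a higher ratio. The spread between probes gives a scale for such values: over 1648 genes with at least 2 probes detected on both arrays, the ratio of a probe had an SD of 0.26 on the log2 scale, which covers neither the animals, the sort nor the amplification. Hif1a lay 6.16 such SDs from 0. Its dimerization partner Arnt had dim signals of 99.4 in metastatic-lung and 86.5 in normal-lung cells (log2 ratio 0.57), and its other probe was detected on neither array. Vhl, the substrate receptor of the ubiquitin ligase that removes HIF alpha, had signals of 519 and 399 (log2 ratio 0.37).

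The prolyl hydroxylase genes differed in their ratios. Egln3, itself a known HIF target, had a signal of 128 in metastatic-lung and 101 in normal-lung cells (log2 ratio 0.72, 1.64-fold higher), while its other probe was not detected. Egln1, the main HIF prolyl hydroxylase, was read by 3 probes, all detected on both arrays, with signals between 109 and 117 in metastatic-lung cells and between 125 and 132 in normal-lung cells and log2 ratios of -0.24, -0.15 and -0.08. The log2 ratio of Egln3 exceeded that of Egln1 by 0.79, with 0.44 to 0.87 under 5 alternative ways of processing. Hif1an, which encodes the asparagine hydroxylase that blocks HIF activity, was not detected. Over the 5 detected genes of this group the median log2 ratio was 0.57, and 1 was at least 2-fold higher and 0 lower, against 5.08% and 8.16% of all detected genes.

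Epas1 is not a member, but it belongs to the list of other oxygen sensing genes and bears on the same factor. Its brightest probe had a signal of 319 in the metastatic-lung cells and 2580 in the normal-lung cells, a log2 ratio of -3.27 (9.67-fold lower), and only 0.261% of genes detected on both arrays had a lower ratio. The other 2 Epas1 probes were detected in the normal-lung cells only, with bounds of at least 6.87-fold and at least 3.71-fold lower in the cells from metastatic lung. The log2 ratios of the alpha subunit genes Hif1a and Epas1 were thus 4.85 apart, with 4.26 to 4.78 under the 5 alternatives. Epas1 is known for its high expression in lung endothelium, and the endothelial markers were lower on the same array; their part in the Epas1 value was not tested. Of the 12 detected genes of this list, Epas1 alone passed 2-fold (8.33% lower, against 8.16% of all), and the median log2 ratio over 11 genes detected on both arrays was -0.02. Next in size were Hsp90aa1, a chaperone of HIF-1 alpha, with a log2 ratio of 0.65, the lectin gene Os9 with -0.41 and the ubiquitin ligase gene Siah1a with -0.32.

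At the first step of glucose use, the transporter genes differed. Slc2a1, which encodes the widely used glucose transporter GLUT1, had a signal of 1495 in metastatic-lung cells and 602 in normal-lung cells (log2 ratio 1.24, 2.37-fold higher), and 2.45% of genes had a higher ratio. Slc2a3, which encodes the high-affinity transporter GLUT3, had signals of 232 and 301 (log2 ratio -0.44, less than 2-fold). The difference between these log2 ratios was 1.68, and 1.53 to 1.80 under the alternatives.

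The hexokinases trap glucose in the cell as glucose 6-phosphate. Hk2, the inducible isozyme, had strong signals of 2927 and 2439 in metastatic- and normal-lung cells (log2 ratio 0.13). Hk3, an isozyme known from myeloid cells, had signals of 341 and 230.02 (log2 ratio 0.66, 1.58-fold higher), 0.52 above the log2 ratio of Hk2. Hk1 was not detected.

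Phosphofructokinase commits the sugar to glycolysis, and its subunit genes differed little. Pfkp had a signal of 346 in metastatic-lung and 288 in normal-lung cells on its brightest probe (log2 ratio 0.28), and a log2 ratio of -0.13 on its other detected probe. The liver-type subunit gene Pfkl had log2 ratios of 0.08 and -0.19 on its probes, and the muscle-type subunit gene Pfkm of 0.18 and 0.32. The signs of the Pfkp and Pfkl probes thus differed, all within 1.11 probe SDs of 0.

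The enzymes that set fructose 2,6-bisphosphate, the activator of phosphofructokinase, differed in opposite directions. Pfkfb3, whose product favours synthesis of this activator, had a signal of 149.7 in metastatic-lung cells and 95.3 in normal-lung cells (log2 ratio 1.17, 2.24-fold higher). Pfkfb4 had signals of 577.5 and 1045 (log2 ratio -1.01, 2.01-fold lower), just past the 2-fold limit, and its other probe was detected on neither array. The log2 ratios of these genes lay 2.18 apart, and 1.62 to 2.18 under the alternatives, so that the opposite directions held although the 2-fold calls of each did not hold in all of them. Both genes are known HIF targets.

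In the lower part of the pathway, which splits the sugar and yields ATP and pyruvate, the members Aldoa, Tpi1, Gapdh and Pgam1 were each less than 1.5-fold apart. Aldoa, the main aldolase gene outside liver and brain, had a signal of 1079 in metastatic-lung and 932 in normal-lung cells (log2 ratio 0.10). Tpi1, the triose phosphate isomerase gene, had signals of 1394 and 1504 (log2 ratio -0.24), and its other detected probe gave -0.28. Gapdh, which encodes the dehydrogenase often used as a loading control, had signals of 347 and 349 on its brighter probe and 287 and 289 on its other probe, with log2 ratios of -0.05 and -0.00, and the sign changed under 1 of 5 alternatives. Pgam1, a phosphoglycerate mutase gene, had signals of 241 and 209.9 (log2 ratio 0.27). Probes of Gapdh, Aldoa, Tpi1, Pgam1 and Ldha may also bind transcripts of the near-identical processed pseudogenes known for such genes, so their assignment is uncertain. Pgk1, a classic HIF target, was not detected, with signals of 47.3 and 51.8 on its single probe, so that nothing can be said of its level.

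Over the 14 detected genes of glucose uptake and glycolysis the median log2 ratio was 0.16, against 0.05 over all genes, with 2 at least 2-fold higher (14.3%, against 5.08% of all detected genes) and 1 lower (7.14%, against 8.16%). Less than 1.5-fold apart were 10 of them (71.4%), close to the 71.0% of all genes. The plot of ratios for every probe shows this: Slc2a1 and Pfkfb3 lie alone to the right of the 2-fold line in this group, and by their brightest probes Aldoa, Tpi1, Gapdh, Pgam1 and Ldha lie between -0.24 and 0.40.

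**Figure D2:**
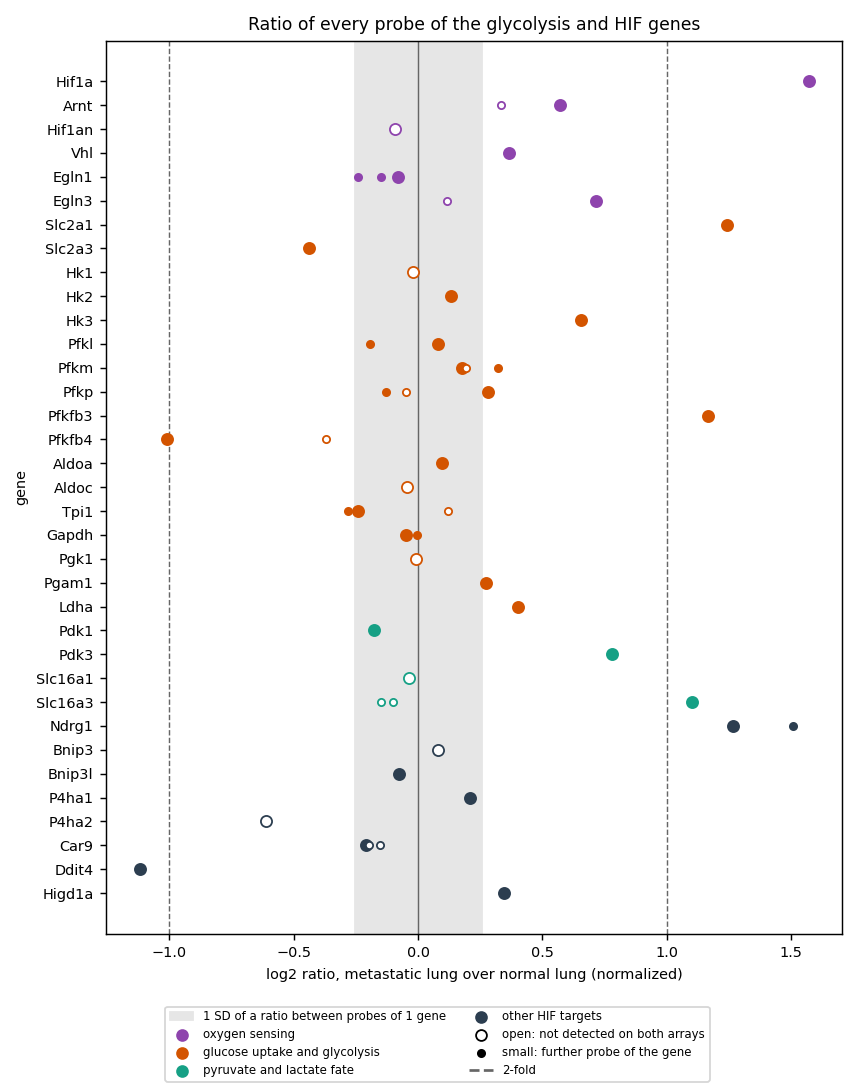
Log2 ratio (metastatic over normal lung, normalized) of every probe of the 35 genes, coloured by role, with large points for the brightest probe, open points where the probe was not detected on both arrays, and a grey band of 1 SD (0.26) between probes of a gene. Dashed lines mark 2-fold; 5 genes have their brightest probe past the right line and 2 past the left line.

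Pyruvate is either turned to lactate and exported or enters the mitochondria. Ldha, which makes lactate, had a signal of 1742 in metastatic-lung and 1225 in normal-lung cells (log2 ratio 0.40, 1.32-fold higher). Slc16a3, which encodes the lactate exporter MCT4, had a dim signal of 147 in metastatic-lung cells and 96.6 in normal-lung cells (log2 ratio 1.10, 2.14-fold higher). Its other 2 probes were detected on neither array and had log2 ratios of -0.10 and -0.15, so the difference rests on 1 probe. Slc16a1, the gene of the carrier MCT1, was not detected.

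Pyruvate dehydrogenase kinases shut the mitochondrial entry of pyruvate. Pdk3 had a signal of 172 in metastatic-lung cells and 123 in normal-lung cells (log2 ratio 0.78, 1.72-fold higher). Pdk1, the best-known HIF target among them, had dim signals of 90.6 and 105.7 (log2 ratio -0.18). The log2 ratio of Pdk3 exceeded that of Pdk1 by 0.96, and by 0.51 to 1.01 under the alternatives.

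The other HIF targets were mixed. Ndrg1, a stress-response gene that is a standard mRNA marker of hypoxia, had a signal of 919.6 in metastatic-lung cells and 387 in normal-lung cells (log2 ratio 1.27, 2.41-fold higher) on its brighter probe, and 722 and 271 (log2 ratio 1.51, 2.85-fold higher) on its other probe. Ddit4, which encodes REDD1, an inhibitor of the growth kinase mTORC1, went the opposite way, with a signal of 3338 in metastatic-lung cells and 6419 in normal-lung cells (log2 ratio -1.12, 2.17-fold lower). Ddit4 also responds to glucocorticoids and other stresses.

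The remaining targets detected on both arrays were less than 1.5-fold apart. Higd1a, a mitochondrial survival gene, had signals of 402 and 318 (log2 ratio 0.34), and Bnip3l, a mitophagy receptor gene, 782 and 768 (log2 ratio -0.08). P4ha1, a collagen prolyl hydroxylase subunit gene, had dim signals of 99.2 and 98.7 (log2 ratio 0.21). P4ha2 was detected in normal-lung cells only, with signals of 72.0 in metastatic-lung and 98.04 in normal-lung cells, at least 1.30-fold lower. Car9, the carbonic anhydrase gene that is among the most hypoxia-dependent of HIF targets, had a dim signal of 88.7 and 104.8 on 1 probe (log2 ratio -0.21), and its other 2 probes were not detected. Bnip3, the sister gene of Bnip3l and a strong HIF target, was not detected on either array. Over the 6 genes of this group detected on both arrays the median log2 ratio was 0.07, and of 7 detected on at least 1 array 1 was at least 2-fold higher and 1 lower (14.3% each, against 5.08% and 8.16% of all). The sign of this median turns to -0.08 with P4ha2 at its bound, and likewise at a detection p below 0.05.

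**Figure D3:**
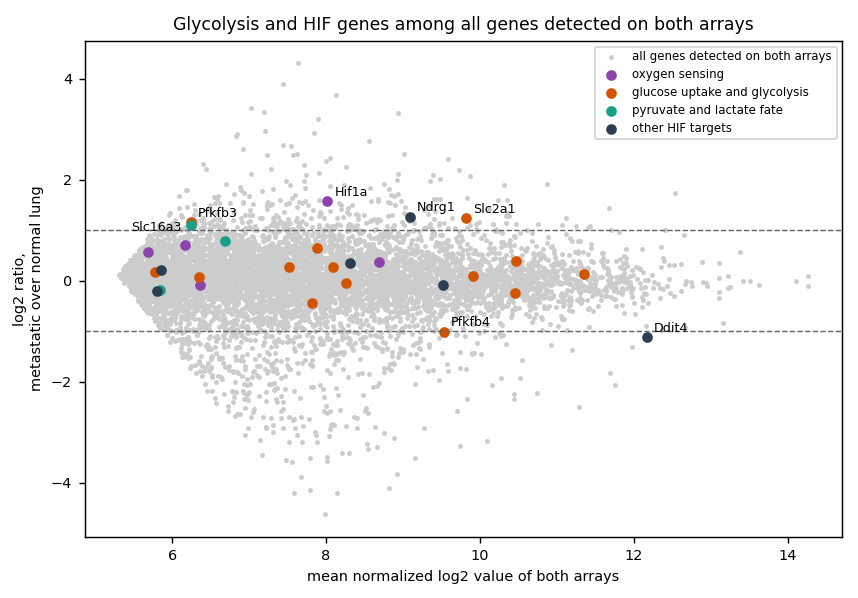
Log2 ratio against mean normalized log2 value for 6904 genes detected on both arrays (grey) and the 28 members among them (coloured by role), with dashed lines at 2-fold and names for the 7 members past it. Hif1a, Ndrg1, Slc2a1, Pfkfb4 and Ddit4 lie further right than Pfkfb3 and Slc16a3.

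The calls differed in how they held under other processing. Hif1a, Slc2a1 and Ndrg1 were at least 2-fold higher under all 5 alternative ways of processing that change the values, with log2 ratios between 1.20 and 1.68 for Hif1a, 1.13 and 1.46 for Slc2a1 and 1.08 and 1.44 for Ndrg1. Pfkfb3 (0.64 to 1.17) and Slc16a3 (0.60 to 1.10) were past 2-fold in 2 of the 5, and missed it with no background correction, with an offset of 50 and with the authors' processed values. Pfkfb4 (-1.01 to -0.81) was past it in 1 of 5 and Ddit4 (-1.13 to -0.87) in 4 of 5. All 7 kept their direction. Hif1a, Slc2a1, Pfkfb3 and Ddit4 each had 1 probe, and Pfkfb4 and Slc16a3 each had 1 detected probe. Ndrg1 alone was read by more than 1 detected probe.

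**Figure D4:**
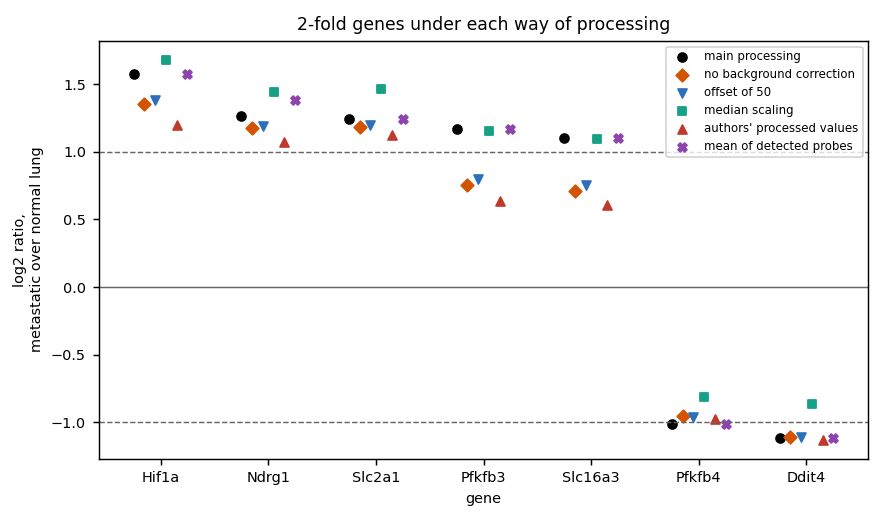
Log2 ratio (metastatic over normal lung) of the 7 members past 2-fold under the processing used here and 5 alternatives, 1 symbol each, with dashed lines at 2-fold. Hif1a, Ndrg1 and Slc2a1 stay above the upper line under each of them, while Pfkfb3 and Slc16a3 drop below it under 3.

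The promoters of Hif1a, Slc2a1, Pfkfb3, Pfkfb4, Slc16a3 and Ddit4 show where the HIF core motif stands, and those of 3 glycolysis genes with strong signals that were less than 1.5-fold apart (Hk2, Ldha and Tpi1) are set beside them. The windows are the 250 bases before a listed transcription start, 5′ to 3′ on the gene's strand, from RefSeq on build GRCm38.p6. Capitals mark the motif, ACGTG or GCGTG on either strand, so that the reverse strand reads CACGT or CACGC, and the palindrome CACGTG holds ACGTG on both strands. The windows of Hif1a, Pfkfb4, Slc16a3 and Ldha lie inside the gene's annotated span, downstream of another start, and that of Pfkfb3 lies partly inside.
Hif1a, chr12:73907617-73907866, plus strand: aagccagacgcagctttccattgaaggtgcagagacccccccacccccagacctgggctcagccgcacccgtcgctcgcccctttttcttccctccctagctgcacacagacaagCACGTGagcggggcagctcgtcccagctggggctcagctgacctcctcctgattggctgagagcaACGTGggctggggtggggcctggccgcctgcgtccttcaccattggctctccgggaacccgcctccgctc
Slc2a1, chr4:119108495-119108744, plus strand: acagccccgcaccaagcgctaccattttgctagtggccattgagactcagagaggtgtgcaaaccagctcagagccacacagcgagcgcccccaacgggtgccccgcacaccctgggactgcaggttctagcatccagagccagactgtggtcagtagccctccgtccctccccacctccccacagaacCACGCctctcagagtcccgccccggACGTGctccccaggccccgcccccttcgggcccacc
Pfkfb3, chr2:11553930-11554179, minus strand: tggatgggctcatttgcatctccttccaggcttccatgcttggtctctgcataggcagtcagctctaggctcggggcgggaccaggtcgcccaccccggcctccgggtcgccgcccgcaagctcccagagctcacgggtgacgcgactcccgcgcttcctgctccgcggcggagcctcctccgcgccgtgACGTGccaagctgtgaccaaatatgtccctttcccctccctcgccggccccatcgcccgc
Pfkfb4, chr9:108991652-108991901, plus strand: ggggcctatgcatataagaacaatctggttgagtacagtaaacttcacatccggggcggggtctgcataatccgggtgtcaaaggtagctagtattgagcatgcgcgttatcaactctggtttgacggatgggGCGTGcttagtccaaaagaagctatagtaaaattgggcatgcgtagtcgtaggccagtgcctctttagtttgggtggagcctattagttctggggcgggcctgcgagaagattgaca
Slc16a3, chr11:120948817-120949066, plus strand: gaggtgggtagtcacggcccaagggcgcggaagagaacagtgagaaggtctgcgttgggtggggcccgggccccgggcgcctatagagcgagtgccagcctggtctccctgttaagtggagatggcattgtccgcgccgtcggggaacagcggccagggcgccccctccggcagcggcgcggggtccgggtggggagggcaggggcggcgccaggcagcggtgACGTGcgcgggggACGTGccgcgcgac
Ddit4, chr10:59951771-59952020, minus strand: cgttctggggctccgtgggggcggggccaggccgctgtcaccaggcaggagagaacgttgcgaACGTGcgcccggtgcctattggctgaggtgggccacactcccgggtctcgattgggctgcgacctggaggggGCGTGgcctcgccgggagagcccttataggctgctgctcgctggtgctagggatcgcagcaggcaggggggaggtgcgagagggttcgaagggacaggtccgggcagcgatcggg
Hk2, chr6:82774455-82774704, minus strand: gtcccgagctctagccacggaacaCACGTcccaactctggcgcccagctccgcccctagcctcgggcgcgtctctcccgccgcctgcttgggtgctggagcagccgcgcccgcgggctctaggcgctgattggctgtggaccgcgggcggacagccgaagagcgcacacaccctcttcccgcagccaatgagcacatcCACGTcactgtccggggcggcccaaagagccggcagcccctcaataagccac
Ldha, chr7:46845554-46845803, plus strand: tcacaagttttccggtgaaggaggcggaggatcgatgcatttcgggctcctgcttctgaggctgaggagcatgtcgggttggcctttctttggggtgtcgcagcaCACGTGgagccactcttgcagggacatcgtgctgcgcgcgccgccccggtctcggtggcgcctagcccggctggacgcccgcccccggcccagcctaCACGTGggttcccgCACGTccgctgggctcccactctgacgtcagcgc
Tpi1, chr6:124814159-124814408, minus strand: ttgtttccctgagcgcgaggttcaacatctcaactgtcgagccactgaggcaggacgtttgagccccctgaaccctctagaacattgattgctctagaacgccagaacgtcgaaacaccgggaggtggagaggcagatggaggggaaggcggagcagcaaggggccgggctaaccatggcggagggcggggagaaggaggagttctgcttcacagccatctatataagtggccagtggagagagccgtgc

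Of these 9 windows, 8 hold the motif at least once. In the Slc16a3 window ACGTG stands 27 and 14 bases before the start, in that of Slc2a1 the motif stands 61 and 36 bases before it, and in that of Pfkfb3 60 bases before it. Ldha, whose mRNA differed 1.32-fold, has 5 matches, among them the palindrome CACGTG at 145 and at 48 bases before the start. Ddit4, which was lower in the metastatic-lung cells, has 2 matches, and Pfkfb4 has 1, so the motif was found in windows of genes past 2-fold in each direction and of genes less than 1.5-fold apart. Over the 37 members with a window, which do not include Ndrg1, Slc2a3 and Bnip3l, 41 of 50 windows (82.0%) hold ACGTG or GCGTG, against 38.6% of 32851 windows of all genes and 44.0% of 21263 windows of protein-coding genes. The member windows also hold more CpG dinucleotides, with a median of 14 against 6 in all windows and 10 in those of protein-coding genes, and each motif contains a CpG. Members were listed partly as known HIF targets, so the choice of list itself favours a higher share of windows with the motif. Some members have more than 1 window, each counted apart. A match is a string of letters and not a measured binding site.

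Further genes of the same pathways, which are not members, are described by their counts. Of 25 detected further HIF targets, 3 were past 2-fold upward (12.0%, against 5.08% of all detected genes) and 2 downward (against 8.16% of all), with a median log2 ratio of 0.20 over 23 genes detected on both arrays. The pathway lists too were chosen with earlier results of these data known, so such contrasts are not independent of the ratios. Hmox1, the heme oxygenase gene, had a signal of 395 in metastatic-lung and 152 in normal-lung cells (log2 ratio 1.71, 3.26-fold higher). The angiogenic factor gene Vegfa had log2 ratios of 1.43 and 2.08 on its 2 detected probes. Kdm3a, a histone demethylase gene and HIF target, had signals of 224 and 133.5 on its brightest probe (log2 ratio 1.06), and its other 2 probes gave 1.10 and, detected in metastatic-lung cells only, at least 1.91-fold higher. The 2 lower genes were Flt1 and Edn1. The receptor gene Flt1 had signals of 81.5, a dim value, and 291 on its brighter probe (log2 ratio -2.49, 5.61-fold lower). Its other probe, detected in normal-lung cells only, was at least 1.83-fold lower. The endothelin gene Edn1 was at least 3.22-fold lower. Both stand beside the lower endothelial markers given above, whose part was not tested.

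**Figure D5:**
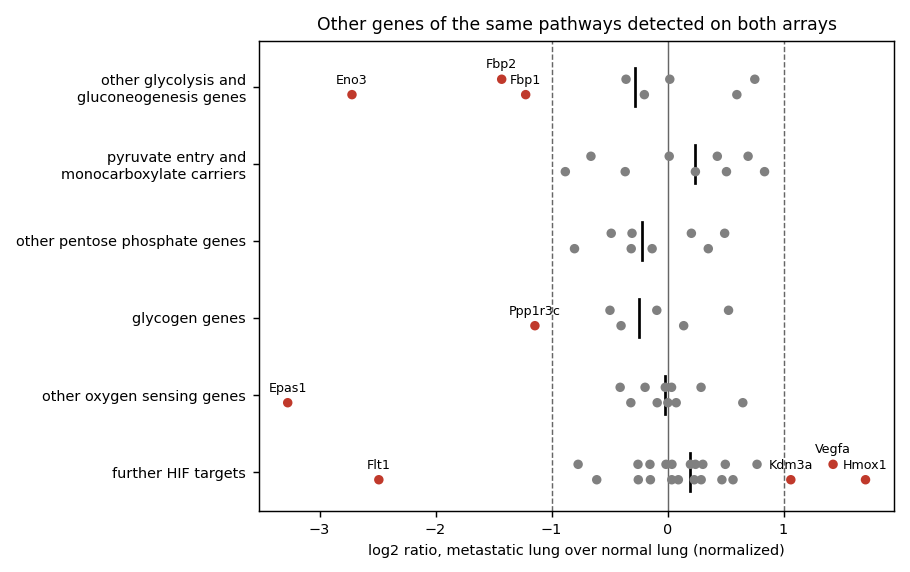
Log2 ratio (metastatic over normal lung) of the non-member genes of 6 pathway lists, 1 point per gene detected on both arrays, with a black bar at each list's median, dashed lines at 2-fold and red points past them. The named points are Eno3, Fbp1, Fbp2, Ppp1r3c, Epas1 and Flt1 on the left and Vegfa, Kdm3a and Hmox1 on the right.

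Of 10 detected other genes of glycolysis and gluconeogenesis, 0 passed 2-fold upward (against 5.08% of all detected genes) and 3 downward (against 8.16%), and the median log2 ratio over the 8 detected on both arrays was -0.28. Eno3, the muscle-type enolase gene, had a signal of 97.2 in metastatic-lung and 433 in normal-lung cells (log2 ratio -2.72, 6.59-fold lower). The fructose bisphosphatase genes Fbp1 and Fbp2, which work against glycolysis, had log2 ratios of -1.22 and -1.43. Their signals in metastatic-lung cells were dim, at 78.1 and 94.3, against 141 and 199 in normal-lung cells. With the authors' processed values the log2 ratios were -0.59 and -0.87. Pkm, the pyruvate kinase gene of most tissues, had a signal of 1562 in metastatic-lung cells and 873 in normal-lung cells (log2 ratio 0.75, 1.68-fold higher).

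Among genes of pyruvate entry and monocarboxylate carriers, 0 of 11 detected passed 2-fold in either direction, against 5.08% and 8.16% of all. The largest log2 ratios in size were 0.84 for Pdha1, a catalytic subunit gene of pyruvate dehydrogenase, -0.88 for Pdp1, the phosphatase that activates the complex, 0.69 for the aromatic amino acid carrier gene Slc16a10, and -0.66 for Pdk4. Of the pentose phosphate genes, 0 of 8 passed 2-fold, with -0.80 for H6pd, an enzyme of the endoplasmic reticulum, 0.49 for the ribokinase gene Rbks, -0.49 for the nucleotide precursor gene Prps2 and 0.35 for the transaldolase gene Taldo1, while the entry genes G6pdx and Pgd are not analysed here. Among 7 detected glycogen genes 1 was at least 2-fold lower (14.3%, against 8.16% of all), Ppp1r3c, a glycogen-targeting phosphatase subunit gene with a log2 ratio of -1.14. Pygl, the liver-type glycogen phosphorylase gene that is also used by neutrophils, had a log2 ratio of 0.53, and Pygb and Pgm1 had -0.50 and -0.40.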

How the data were processed

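RNA of sorted cells was extracted with an RNeasy Plus Micro kit and turned to biotinylated cRNA with the NuGEN WT-Ovation Pico kit, per the labels' protocols, and BeadStudio is named in the submitters' processing notes. The authors deposited a non-normalized intensity and a detection p-value for each probe, per the file headers. A further deposited table holds processed intensity values with medians of 96.0 (metastatic) and 87.2 (normal), each column being the raw column times 0.942 and 1.08 plus 33.8 and 9.31; its scale is thus linear and uncentred, no source names its method, and it served as an alternative. The intensities were background-corrected from the detection p-values with an offset of 16, quantile-normalized and taken to log2 (neqc, limma 3.58.1, R 4.3.3). This processing was run on simulated arrays in which only bright probes were changed, so that run does not cover ratios of dim genes. Tables and plots used Python 3.11.15, pandas 2.3.3, numpy 2.4.6 and matplotlib 3.10.9. Fold changes include the offset, so those of dim genes are understated.

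Gene symbols came from a platform annotation of 2016, updated through gene identifiers to RefSeq genes of GRCm38.p6: 23978 probes had 1 symbol, 0 several and 1719 none. A gene is its probe with the highest mean normalized value. A gene detected (p below 0.01) on 1 array only enters counts at a bound, its dim value raised to the lowest detected value of that array (log2 5.36 for metastatic and 5.24 for normal lung). Every member is given; of each pathway list, the 4 largest log2 ratios among genes detected on both arrays and every gene past 2-fold are named. Of the members, 37 matched a promoter window and Ndrg1, Slc2a3 and Bnip3l did not; windows are printed for the matched members past 2-fold and for the 3 brightest other glycolysis members. Members and lists were chosen with earlier results of these data known. Alternatives were no background correction, an offset of 50, median scaling, the authors' processed values, a detection p below 0.05, no detection filter, the mean of detected probes and a 1.5-fold limit. The number of arrays limits the precision.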

Additional observations from a re-analysis of the deposited data

How the results depend on the processing

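Direction was kept by all 7 members past 2-fold under the 5 alternatives that change values, and the sign changed under 1 of them each for Pfkl, Gapdh and Bnip3l. Members at least 2-fold higher numbered 5 and lower 2. They numbered 3 and 1 (10.3% and 3.4% of 29 members) with no background correction, with an offset of 50 and with the authors' processed values. With median scaling, which moved the median of all genes detected on both arrays to 0.15 against 0.05, 5 were higher and 0 lower, and 509 and 618 of all genes (6.26% and 7.60%). At a 1.5-fold limit 8 were higher, with Egln3, Hk3 and Pdk3 added (27.6% of members, against 14.4% of all genes), and 2 lower. All genes at least 2-fold higher and lower numbered 413 and 663 (5.08% and 8.16%), against 1172 and 1262 at 1.5-fold. With no background correction they numbered 203 and 436 (2.5% and 5.4%), and with an offset of 50, 226 and 469 (2.8% and 5.8%). The authors' processed values gave 154 and 397 (1.9% and 4.9%). The median log2 ratio of the oxygen sensing genes was 0.31 with the authors' processed values, against 0.57. That of all members was 0.24, and between 0.10 (no detection filter) and 0.36 (median scaling) under the alternatives; that of the other HIF targets was 0.07, and -0.08 at a detection p below 0.05. Of 270 values of 54 named genes under these alternatives, 227 moved by less than 1 probe SD, 42 came closer to 0 and 1 moved further from it. Kdm3a, Fbp1 and Ppp1r3c were past 2-fold in 2 of 5, Fbp2 in 3 and Edn1 in 4. No paired analysis was possible because each group has 1 array, and for the same reason no replicate could be left out. Among the members, dim probes limit what can be read of Arnt, Egln1, Egln3, Pfkl, Pfkm, Pfkfb3, Pdk1, Slc16a3, P4ha1, P4ha2 and Car9. The same holds for genes outside the members such as Flt1, Fbp1 and Fbp2.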
